A study of Mus musculus with 10 samples.

Results

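The 36 genes described here encode the contractile apparatus, calcium release machinery and energy enzymes of skeletal muscle, and they were chosen by name and matched through GENCODE M21 to the gene IDs counted in mouse whole skin. All 36 were found among the 49671 gene IDs of the count files. They comprise 12 genes of fast fibres, 9 of slow fibres, 8 sarcomere genes shared by both, 3 of calcium release and 4 of energy supply. Poly(A) RNA of whole skin was sequenced from 5 mice homozygous for the allele of strain B6;129S4-Npytm2Rpa/J (NPYtet; 2 labelled male, 3 labelled female) and from 5 wildtype siblings (WT; 3 labelled male, 2 labelled female), with 1 library per mouse. Every mouse was 22 weeks old, and no treatment is named in the labels. The study asked how skin RNA differs between mice with this altered Npy allele, which encodes neuropeptide Y, and their siblings. How the allele is built, the body site of the skin and the depth of the cut are not stated in the labels.

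Mouse skin carries a thin sheet of striated muscle under its fat layer, the panniculus carnosus, which twitches the skin and is built mainly of fast fibres. Each striated fibre uses myosin heavy chains that pull on actin filaments: Myh4, Myh1 and Myh2 encode the heavy chains of the fast types IIb, IIx and IIa, and Myh7 that of slow fibres. Calcium released through Ryr1 binds troponin and starts contraction, the SERCA pumps (Atp2a1 in fast fibres, Atp2a2 in slow fibres) take the calcium back up, and creatine kinase (Ckm) buffers ATP. In bulk skin, fewer muscle fibres and less RNA per fibre cannot be told apart.

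Total counts ran from 23209405 reads in NPYtet replicate 5 to 53357695 reads in WT replicate 4. Npy itself followed the labels, with 3913 to 7686 reads in the NPYtet libraries, against 4 to 80 reads in the WT libraries. Mitochondrial genes took 9.26% of reads in NPYtet replicate 5, against 1.86% to 3.03% in the other 9 libraries, and its TMM scaling factor of 0.652 and that of WT replicate 2, 0.696, were the lowest. NPYtet replicate 1 is labelled female but held 2 reads of the X-inactivation RNA Xist and 1513 reads of the Y-linked gene Ddx3y, at 37.2 CPM. The other 4 libraries labelled female held 333 to 462 CPM of Xist and no read of Ddx3y. The label of NPYtet replicate 1 was kept, and results by sex are given with and without it.

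Muscle RNA was present in every library. The 36 genes together took 1.06%, 0.946%, 1.86%, 1.58% and 0.831% of reads in NPYtet replicates 1 to 5, against 1.10%, 1.31%, 2.0%, 1.13% and 0.659% in WT replicates 1 to 5. The groups overlapped almost completely, with the highest and the lowest share both in WT libraries. Of the 36 genes, 32 passed the filter on low counts and were tested. Tnnc2, Myh7, Myl2 and Myl3 did not pass it and are given as reads.

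Levels are compared between genes as mean CPM (counts scaled to library size, after TMM scaling) per kilobase of exon over the 10 libraries. Acta1 (ENSMUSG00000031972, mm10 chromosome 8, 123891769 to 123894751, reverse strand), the actin of the skeletal thin filament, stood highest at 1639 CPM per kb. It reached 2353, 1948, 2930, 2271 and 2518 CPM in NPYtet replicates 1 to 5, against 1685, 4677, 3446, 1880 and 1466 CPM in WT replicates 1 to 5. The 5 NPYtet values all lay between the lowest and the highest WT value.

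Among the fast fibre genes, the troponin T gene Tnnt3 had a mean level of 514 CPM per kb, the regulatory light chain gene Mylpf 440.1 CPM per kb and the calcium pump gene Atp2a1 338 CPM per kb. Troponin I (Tnni2) had a mean level of 324 CPM per kb, parvalbumin (Pvalb), a calcium buffer of fast fibres, 270.4 CPM per kb, and the alkali light chain gene Myl1 241 CPM per kb. Myh4 had the highest level of the heavy chain genes at 123 CPM per kb, before Myh1 at 47.8 and Myh2 at 4.28 CPM per kb. Actn3, the fast fibre alpha-actinin of the Z disc, had a mean level of 86.6 CPM per kb and Mybpc2, the fast myosin-binding protein C, 41.3 CPM per kb.

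Slow fibre genes fell into a near-silent set and a set with clear counts. Myh7 (ENSMUSG00000053093, mm10 chromosome 14, 54970684 to 54994626, reverse strand) had 8 reads in all 10 libraries together, 1 in NPYtet replicate 2 and 7 in WT replicate 2. A library with 0 reads of a gene is compatible with up to 3 reads, which is 0.0562 to 0.129 CPM per library before TMM scaling and covers counting error only. The slow light chain genes Myl2 and Myl3 had 31 and 54 reads in all, slow troponin C (Tnnc1) 104, slow troponin I (Tnni1) 551 and slow troponin T (Tnnt1) 759. Against those reads, Atp2a2 had a mean level of 39.97 CPM per kb, the tropomyosin gene Tpm3 34.2 and the slow myosin-binding protein C gene Mybpc1 27.6 CPM per kb. Atp2a2 and Tpm3 are also used by cells other than muscle, and Mybpc1 also by fast fibres.

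Myh4 exceeded Myh7 per kilobase of exon in each of the 10 libraries. With Myh7 set to the floor of 3 reads per library, Myh4 was at least 1670-fold, 5320-fold, 32500-fold, 34400-fold and 1070-fold higher in NPYtet replicates 1 to 5. Against the same floor it was at least 22000-fold, 27600-fold, 16500-fold and 4220-fold higher in WT replicates 1, 3, 4 and 5. In WT replicate 2, with its 7 Myh7 reads, the ratio was 830.0. The skin muscle RNA of both genotypes thus held fast heavy chain transcripts and hardly any of the slow one.

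One fast gene was as low as the slow set. Tnnc2 (ENSMUSG00000017300, mm10 chromosome 2, 164777161 to 164779967, reverse strand), fast troponin C and the partner of Tnnt3 and Tnni2, had 36 reads in all, at a mean of 0.102 CPM per kb. Exons of the neighbouring gene Ube2c on the opposite strand cover 74.0% of its exon bases. Of 73 coding genes with more than 60 and up to 90% of exon bases shared in this way, 7 had no read and 43.8% exceeded 1 CPM, at a median of 0.54 CPM. The 15369 coding genes with no shared base had a median of 5.27 CPM. The part of the overlap in the level of Tnnc2 was not tested, and no source used here gives the strand setting of the counting, so its level is uncertain. Other members with such overlap were Mb (31.9% of exon bases), Atp2a1 (21.9%), Cacna1s (19.98%), Ckm (15.5%) and Myh7 (13.3%), and reads of these stretches are uncertain likewise.

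Below Acta1, the other 7 shared sarcomere genes ranged from 287.6 CPM per kb for Tpm2, a tropomyosin, and 155.0 CPM per kb for desmin (Des), the intermediate filament of muscle, to 4.06 CPM per kb for titin (Ttn) and 3.598 CPM per kb for nebulin (Neb). Titin spans the sarcomere and nebulin runs along the thin filament, and both transcripts are very long. Calsequestrin (Casq1), which stores calcium, had a mean level of 43.3 CPM per kb, before the release channel Ryr1 at 6.59 and its voltage sensor Cacna1s at 5.85 CPM per kb. Of the energy genes, the glycolytic enzyme Eno3 had a mean level of 251.6 CPM per kb, Ckm 239.9, myoglobin (Mb) 143 and the phosphoglycerate mutase Pgam2 124.5 CPM per kb.

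**Figure D1:**
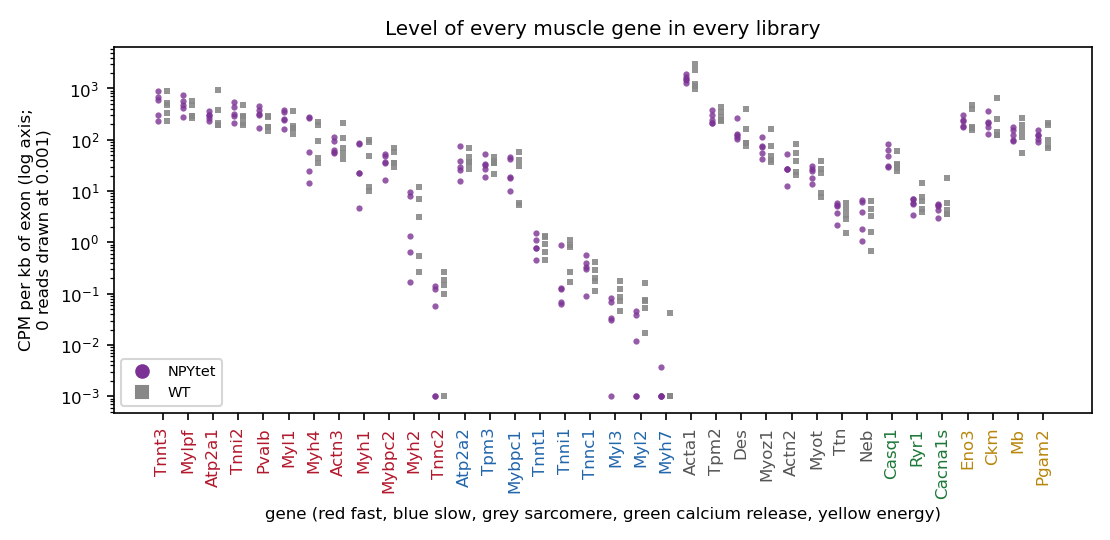
Level of every gene in every library, in CPM per kilobase of exon on a log axis, with NPYtet libraries as purple circles left of WT libraries as grey squares, and genes coloured and grouped by role. The highest level is that of Acta1, while Tnnc2 and the slow genes Tnnt1, Tnni1, Tnnc1, Myl3, Myl2 and Myh7 lie lowest and Myh7 has reads in 2 libraries.

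The 250 bases before the RefSeq start of Acta1 and of the 3 fast heavy chain genes are shown, since these genes carry the largest muscle signal and the largest spread among libraries. The windows come from RefSeq (GRCm38.p6) and are written 5′ to 3′ on the gene's own strand. They are chr8:123894776-123895025 (reverse) for Acta1, chr11:67199852-67200101 (forward) for Myh1, chr11:67170777-67171026 (forward) for Myh2 and chr11:67237562-67237811 (forward) for Myh4. Capitals mark the E-box CANNTG, the letters TATAAA, the CArG box and the MEF2 motif, searched on both strands.
Acta1: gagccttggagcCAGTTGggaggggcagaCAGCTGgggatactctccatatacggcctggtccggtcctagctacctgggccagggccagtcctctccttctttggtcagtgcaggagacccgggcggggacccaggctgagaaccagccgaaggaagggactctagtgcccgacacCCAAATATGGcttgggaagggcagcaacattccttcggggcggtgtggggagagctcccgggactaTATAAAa
Myh1: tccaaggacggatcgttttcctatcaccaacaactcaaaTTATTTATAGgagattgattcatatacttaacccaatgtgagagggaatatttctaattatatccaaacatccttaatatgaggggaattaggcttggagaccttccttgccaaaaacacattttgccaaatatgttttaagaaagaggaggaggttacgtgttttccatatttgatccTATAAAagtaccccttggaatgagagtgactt
Myh2: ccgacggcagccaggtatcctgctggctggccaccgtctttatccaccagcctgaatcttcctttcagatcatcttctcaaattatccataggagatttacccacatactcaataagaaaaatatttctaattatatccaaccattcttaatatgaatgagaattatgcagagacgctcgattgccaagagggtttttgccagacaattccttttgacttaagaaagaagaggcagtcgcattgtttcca
Myh4: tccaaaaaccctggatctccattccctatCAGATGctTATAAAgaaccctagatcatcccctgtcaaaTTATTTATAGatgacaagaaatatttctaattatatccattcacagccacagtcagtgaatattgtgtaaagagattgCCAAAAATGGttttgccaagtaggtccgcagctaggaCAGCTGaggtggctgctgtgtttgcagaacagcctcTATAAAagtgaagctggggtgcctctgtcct

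The Acta1 window held 2 E-boxes and 1 CArG box, whose first base lay 73 bases before the start. The Myh4 window held 2 E-boxes, 1 CArG box and 1 MEF2 motif, and the Myh1 window held 1 MEF2 motif, which in both overlaps a TATAAA match on the opposite strand. The Myh2 window held none of the 4 motifs. RefSeq windows were found for 29 of the 36 genes, and some of these genes have several starts. E-boxes occurred in 32 of their 36 windows (88.9%), against 66.2% of 32851 windows of all genes. The MEF2 motif occurred in 5 of 36 windows (13.9%, against 2.92% of all), the CArG box in 3 (8.33%, against 1.47%) and TATAAA in 6 (16.7%, against 12.4%). These are counts of letters in a window and do not show binding. Tnnt3, Myoz1, Tnni2, Myot, Atp2a2, Actn3 and Neb were not in the table.

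None of the 32 genes passed the test by genotype, which does not show that their levels were equal. In edgeR's quasi-likelihood test, fitted on 18060 genes with sex and genotype, 0 of 32 passed an adjusted p of 0.05, against 0.00554% of all genes, which is Npy alone. Limma voom also called 0 of the 32 (0.0111% of all genes) and DESeq2 0 of 30 (0.198% of all genes), giving no adjusted p for Myh1 and Cacna1s. At an unadjusted p under 0.05 there was 1 member, Tnni1, of 32, against 3.59% of all genes. No member had NPYtet and WT libraries without overlap, against 0.305% of all genes. Positive log2 fold changes (NPYtet minus WT) were found for 11 of the 32, against 48.8% of all genes, with a median of -0.11, against -0.01 over all genes. That median was 0.08 without WT replicate 2 and 0.07 without WT replicate 3, and 0.09 when NPYtet replicates 1 and 5 and WT replicate 2 were all left out.

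By role, 5 of 11 fast genes tested had a positive log2 fold change and the median was -0.31. Calcium pump, actinin and heavy chain genes were below 0 and several troponin and light chain genes above it. Single libraries turned some of these directions: without WT replicate 2, Atp2a1 was at 0.24 and Actn3 at 0.15, without WT replicate 4, Myh1 was at 0.265 and Myh2 at 0.17, and without NPYtet replicate 5, Tnni2 was at -0.06 and Tnnt3 at -0.21. The log2 fold change was -0.31 (SE 0.47) for Atp2a1, -0.37 (SE 0.45) for Actn3 and -0.37 (SE 0.36) for Mybpc2. It was 0.51 (SE 0.33) for Pvalb, 0.42 (SE 0.34) for Myl1, 0.38 (SE 0.35) for Mylpf, 0.29 (SE 0.35) for Tnni2 and 0.04 (SE 0.41) for Tnnt3. For the heavy chains it was -0.53 (SE 0.77) for Myh1, -0.53 (SE 0.95) for Myh2 and -0.34 (SE 0.59) for Myh4. Each of these genes had an edgeR adjusted p of 0.999.

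Of 6 slow genes tested, 1 had a positive log2 fold change and the median was -0.07, with -0.05 (SE 0.43) for Tnnt1, 0.56 (SE 0.59) for Tnnc1, -0.08 (SE 0.39) for Atp2a2, -0.07 (SE 0.33) for Tpm3 and -0.16 (SE 0.55) for Mybpc1. Shared sarcomere genes were divided 4 to 4, with a median of 0.03. The log2 fold change was -0.14 (SE 0.40) for Acta1 and 0.29 (SE 0.38) for Ttn, and reached its lowest value in this group, -0.56 (SE 0.44), for Actn2, the alpha-actinin common to fibre types. The Z disc genes myozenin (Myoz1) and myotilin (Myot) were at 0.07 (SE 0.42) and 0.14 (SE 0.40). Calcium release genes had a median of -0.37 (1 of 3 positive), with -0.37 (SE 0.39) for Ryr1, -0.46 (SE 0.46) for Cacna1s and 0.25 (SE 0.28) for Casq1. All 4 energy genes were below 0, between -0.34 (SE 0.38) for Eno3 and -0.08 (SE 0.49) for Ckm, none past the threshold. Without WT replicate 2, which held the highest level of all 4, Ckm was at 0.47, Pgam2 at 0.11, Mb at 0.06 and Eno3 at -0.03. Without WT replicate 3, Ckm, Mb and Pgam2 were above 0 as well, at 0.095, 0.25 and 0.17, and Ckm was at 0.17 without NPYtet replicate 2. Cacna1s was at 0.095 without WT replicate 2. The edgeR adjusted p was 0.999 for each gene of these 4 roles.

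**Figure D2:**
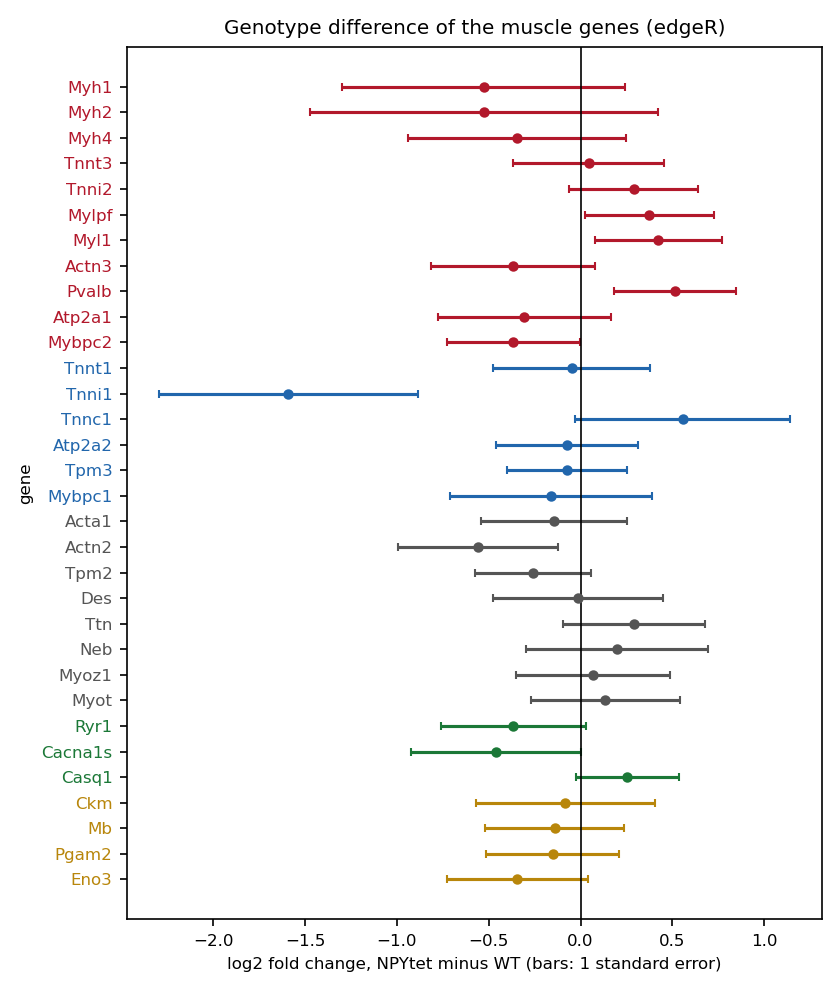
Log2 fold change by genotype (NPYtet minus WT, edgeR) of the 32 genes tested, with bars of 1 standard error and the colours of the roles (red fast, blue slow, grey sarcomere, green calcium release, yellow energy). Most bars cross 0, the lowest point is Tnni1 at -1.59, and no gene passed the threshold.

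Tnni1 (ENSMUSG00000026418, mm10 chromosome 1, 135779434 to 135810989, forward strand) was at 0.467, 0.445, 0.254, 0.229 and 3.24 CPM in NPYtet replicates 1 to 5, against 3.92, 3.23, 0.611, 2.93 and 0.9498 CPM in WT replicates 1 to 5. It was low in 4 NPYtet libraries and high in the fifth, which lay within the WT range. Its log2 fold change was -1.59 (SE 0.71, edgeR unadjusted p = 0.0402, adjusted p = 0.999). With each library left out in turn it ran from -2.64, without NPYtet replicate 5, to -0.60, without WT replicate 1. The summed level of 18 growing hair follicle markers was 27.0, 1666, 143, 55.9 and 16280 CPM in NPYtet replicates 1 to 5, against 28140, 29950, 318, 20570 and 9565 CPM in WT replicates 1 to 5. The 4 libraries with more than 2 CPM of Tnni1 were the 4 with the highest hair sums. All 18 hair markers had a negative log2 fold change by genotype, none of them past the threshold, and each averaged at least 1 CPM over the libraries. The part of the hair in the Tnni1 values was not tested.

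The Myh4 to Myh2 ratio, which sets the fastest heavy chain against the oxidative fast one, differed between the genotypes by less than the spread between mice. Its log2 value (reads plus 0.5, per kilobase of exon) averaged 5.38 ± 1.02 in NPYtet and 5.48 ± 1.22 in WT libraries (SD, n = 5 each). The difference was -0.10, with p = 0.889 in the two-sided exact permutation test over all divisions of the 10 libraries into 5 and 5, and 0.929 when adjusted over 2 ratios. The other ratio was that of Myh4 to Myh7. Since Myh7 had 0 reads in 8 libraries, it restates the Myh4 reads there, and the fast to slow balance of heavy chains was not testable between genotypes at this depth. The summed level of the 12 fast genes was 3785, 3252, 7483, 6602 and 5308 CPM in NPYtet replicates 1 to 5, against 4442, 6520, 7736, 4204 and 2672 CPM in WT replicates 1 to 5. WT held both the highest and the lowest fast sum.

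Among the fast heavy chain reads, Myh4 took 73.5%, 70.4%, 72.0%, 73.4% and 49.6% in NPYtet replicates 1 to 5, against 76.9%, 73.1%, 65.5%, 49.4% and 79.9% in WT replicates 1 to 5. Myh1 took 25.5%, 28.6%, 25.4%, 23.4% and 47.2% in NPYtet libraries, against 19.9%, 25.5%, 30.3%, 48.7% and 19.5% in WT libraries. One library of each genotype thus stood apart with nearly equal shares of Myh4 and Myh1, NPYtet replicate 5 and WT replicate 4. Myh2 took between 0.929% and 3.25% in NPYtet libraries, against 0.587% to 4.12% in WT libraries. The widest 95% Wilson interval of any of these shares was 2.91 percentage points and covers counting error only. The 3 genes are close copies of each other in a cluster on chromosome 11, so the division of reads between them is uncertain.

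**Figure D3:**
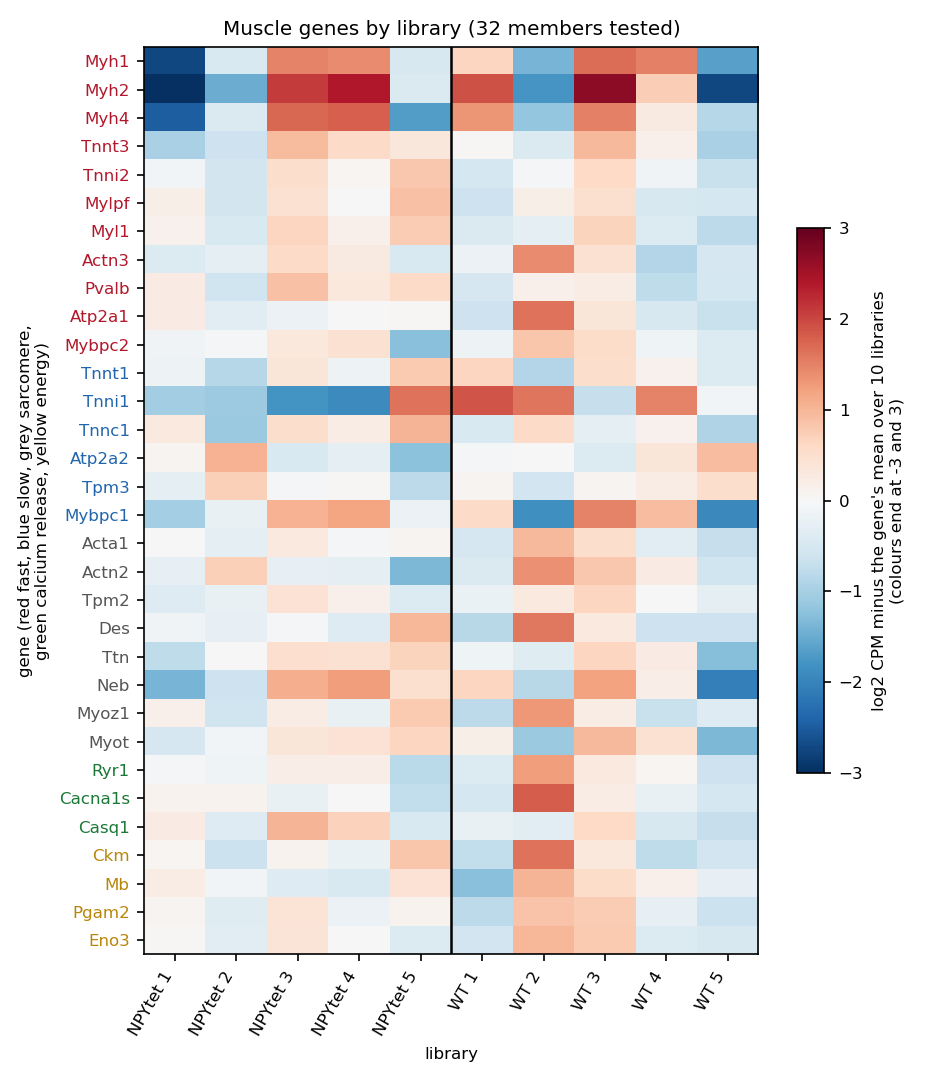
Log2 CPM of the 32 genes tested in the 10 libraries after subtracting each gene's mean over the libraries, NPYtet left and WT right of the line, with gene names coloured by role. Myh1, Myh2 and Myh4 vary most, and WT replicate 2 stands out with high Atp2a1, Des, Cacna1s and Ckm beside low heavy chains, Neb, Myot and Mybpc1.

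The spread between mice was wide within both genotypes. The highest library exceeded the lowest 71.0-fold for Myh2, 21.1-fold for Myh1, 19.2-fold for Myh4, 17.1-fold for Tnni1, 10.7-fold for Mybpc1 and 9.87-fold for Neb. The same ratio was 3.19 for Acta1 and 2.06 for Tpm2. Myh4 (ENSMUSG00000057003, mm10 chromosome 11, 67238029 to 67260446, forward strand) was at 86.0, 354, 1568, 1648 and 149 CPM in NPYtet replicates 1 to 5, against 1191, 215, 1361, 572 and 262 CPM in WT replicates 1 to 5. NPYtet replicates 3 and 4 and WT replicates 1 and 3 were high, the other 6 libraries low, in both genotypes.

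Myh2 (ENSMUSG00000033196, mm10 chromosome 11, 67171027 to 67197517, forward strand) divided the libraries in the same way. It was at 1.21, 4.68, 56.4, 70.07 and 9.73 CPM in NPYtet replicates 1 to 5, against 49.8, 3.81, 85.5, 22.1 and 1.93 CPM in WT replicates 1 to 5. Myh1 (ENSMUSG00000056328, mm10 chromosome 11, 67200052 to 67224575, forward strand) was at 29.8, 144, 554, 526 and 141 CPM in NPYtet libraries, against 308, 74.8, 630.0, 563 and 64.1 CPM in WT libraries. WT replicate 4 joined the high libraries for Myh1 only.

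All 4 libraries high in Myh4 are labelled female, and the fifth library with that label, NPYtet replicate 1, had the lowest Myh4 level of all. The same 4 libraries also had the 4 highest TMM factors, from 1.16 in WT replicate 3 to 1.21 in NPYtet replicate 3. Factors of the others ran from 0.652 in NPYtet replicate 5 to 1.13 in WT replicate 4. The part of library quality in the Myh4 and Myh2 levels was not tested. Myh4 lay at 149 to 572 CPM in the 5 libraries labelled male, against 86.0 to 1648 CPM in the 5 labelled female, and at 1191 to 1648 CPM in the females without NPYtet replicate 1. Myh2 lay at 1.93 to 22.1 CPM in males, against 1.21 to 85.5 CPM in females, and at 49.8 to 85.5 CPM in the females without NPYtet replicate 1. Casq1 lay at 48.2 to 62.8 CPM in males, against 66.2 to 159 CPM in females, with NPYtet replicate 1 at 92.4 CPM. Placed by its Xist and Ddx3y reads instead of its label, that library would make the Casq1 ranges overlap. The same placement would leave no overlap for Myh4, at 86.0 to 572 CPM in males against 1191 to 1648 CPM in females. Nor would Myh2 overlap, at 1.21 to 22.1 CPM against 49.8 to 85.5 CPM. The share of all genes parted in this way was not computed. Without NPYtet replicate 1 the log2 fold change of Casq1 (male minus female) was -0.95 (SE 0.31, edgeR adjusted p = 0.0957), not past the threshold.

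By sex, 0 of the 32 genes passed an adjusted p of 0.05 in edgeR, against 2.48% of all genes, and 4 had an unadjusted p under 0.05, against 24.6% of all genes. Positive log2 fold changes (male minus female) were found for 11 of 32, against 46.2% of all genes. The log2 fold change was -1.9985 (SE 0.61, adjusted p = 0.0871) for Myh4, -2.71 (SE 1.0021, adjusted p = 0.146) for Myh2, -0.92 (SE 0.28, adjusted p = 0.0863) for Casq1 and -1.13 (SE 0.50, adjusted p = 0.184) for Neb. These are the 4 genes with an unadjusted p under 0.05 in edgeR. Mybpc1 was at -1.14 (SE 0.56, edgeR adjusted p = 0.224) and Myh1 at -1.19 (SE 0.78, edgeR adjusted p = 0.357).

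Without NPYtet replicate 1, Myh4 was lower in males and past the threshold (edgeR adjusted p = 0.0158, log2 fold change -2.19, SE 0.43). Myh2 passed in the same fit (edgeR adjusted p = 0.0190, log2 fold change -2.95, SE 0.58). Without WT replicate 4, Myh4 passed at -2.26, Mybpc1 at -1.79 and Casq1 at -0.94 (edgeR adjusted p = 0.0426, 0.0406 and 0.0460). With NPYtet replicates 1 and 5 and WT replicate 2 all left out, Myh4 passed at -1.80 (edgeR adjusted p = 0.0245) and Atp2a2 at 1.14 (edgeR adjusted p = 0.0363). These fits called 3.09%, 14.9% and 5.08% of all genes by sex. With no filter on low counts 5 members passed, against 7.24% of all genes. DESeq2 called Myh4, Myh2 and Casq1, 3 of the 30 members with an adjusted p, against 12.9% of all genes. Limma voom called 8 of 32, against 31% of all genes: Atp2a2 higher in males, and Tnnt3, Myl1, Pvalb, Mybpc1, Neb, Myot and Casq1 lower in males. Over 16 alternatives the log2 fold change of Myh4 ran from -2.26 to -1.73 and was called in 5.

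Levels of 3 collagen genes divided the libraries in the same way as Myh4. The summed level of 8 dermal fibroblast markers was 74390, 36800, 11750, 11780 and 30870 CPM in NPYtet replicates 1 to 5, against 11950, 33060, 13050, 30810 and 60940 CPM in WT replicates 1 to 5. The 4 libraries high in Myh4 had the 4 lowest sums, and the sum was led by Col1a1, Col1a2 and Col3a1. The other 5 markers did not divide the libraries in this way. Dcn, the proteoglycan decorin, was at 2496, 1871, 2807, 2318 and 4053 CPM in NPYtet replicates 1 to 5, against 1708, 898.5, 2607, 1409 and 1209 CPM in WT replicates 1 to 5. By sex, Dcn, Dpt, Fbn1 and Pdgfra had log2 fold changes below 0, against values above 0 for the 3 collagen genes and Lum. Of the 8 fibroblast markers none was called by sex or by genotype, and all 8 had a positive log2 fold change by genotype (median 0.59). The sum of 10 white adipocyte markers was 2518, 2791, 4334, 5203 and 7716 CPM in NPYtet libraries, against 1886, 4777, 3568, 2038 and 1458 CPM in WT libraries. All 10 were positive by genotype (median 0.77) and none passed the threshold. WT replicate 5 had the lowest sum of fat markers and of fast fibre genes. Every marker of the fibroblast and fat lists averaged at least 1 CPM. The part of either list in the heavy chain values was not tested.

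**Figure D4:**
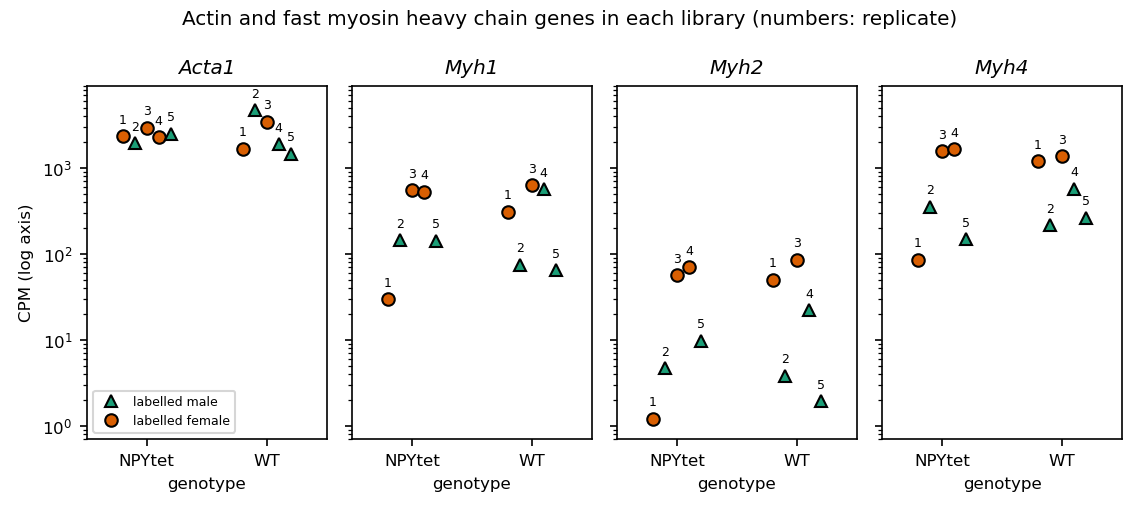
CPM (log axis) of Acta1, Myh1, Myh2 and Myh4 in each library, NPYtet left of WT, with green triangles for mice labelled male, orange circles for mice labelled female and replicate numbers above the points. Acta1 stays within 1466 to 4677 CPM, while Myh2 and Myh4 are high in NPYtet 3 and 4 and WT 1 and 3 and low in NPYtet 1, which is labelled female.

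No member passed the test of the interaction of genotype and sex. For the difference between male and female genotype differences, 0 of 32 passed in edgeR, against 0% of all genes, and 0 of 32 had an unadjusted p under 0.05 (the smallest was 0.0785), against 1.63% of all genes. DESeq2 and limma voom also called 0 of the 32.

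WT replicate 2 held the highest level of 13 of the 32 genes, among them Acta1, Atp2a1, Actn3, Des, Ryr1, Cacna1s and all 4 energy genes. Ckm was at 623, 384, 647, 525 and 1067 CPM in NPYtet replicates 1 to 5, against 359, 1865, 753, 358 and 407 CPM in WT replicates 1 to 5. Atp2a1 was at 1245, 822, 924, 1056 and 1074 CPM in NPYtet replicates, against 683, 3218, 1338, 743 and 662 CPM in WT replicates. For Ckm, WT replicate 2 was the 1 WT library above every NPYtet library, and for Atp2a1 WT replicate 3 was above them too. In the same library Myh1, Myh2, Myh4, Neb, Myot and Mybpc1 were below their means.

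The order of genes in WT replicate 2 followed the GC content of their transcripts. Across the 29 members with a mean of at least 10 CPM, the deviation of log2 CPM from the gene's mean had a correlation of 0.67 with GC content in this library, and across 15244 coding genes it was 0.64. Over the same coding genes it was 0.43 in WT replicate 5 and ran from -0.36 (NPYtet replicate 4) to 0.05 in the other 8 libraries. Genes are not independent replicates, and this is a description. In the other 9 libraries the correlation across the 29 members lay between -0.38 and 0.26. Ryr1 (58.0% GC) and Acta1 (57.0%) were above their means in WT replicate 2, and Myot (45.8%), Neb (47.0%) and Mybpc1 (47.7%) below them. The heavy chain genes, at 52.6% to 53.7% GC, lay below their means as well. The part of GC content in the WT values was not tested.

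**Figure D5:**
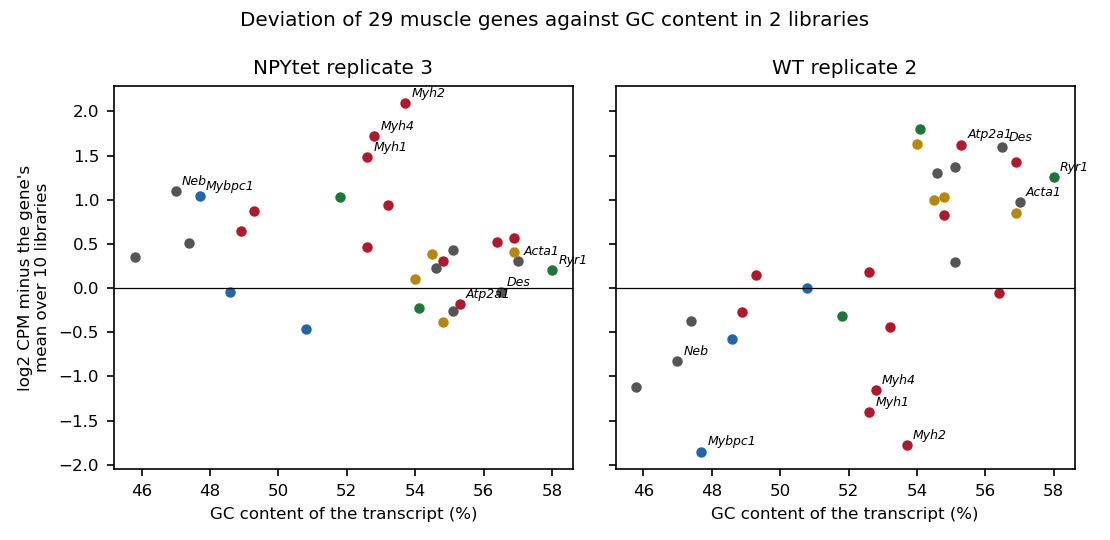
Deviation of log2 CPM from the gene's mean over 10 libraries, against GC content of the transcript (%), for the 29 members with at least 10 CPM, in NPYtet replicate 3 and WT replicate 2. The correlation across genes is -0.24 in NPYtet replicate 3 and 0.67 in WT replicate 2.

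Atp2a2 and Tpm3, of the slow list, did not follow the fast genes. Atp2a2 was at 235, 452, 160, 183 and 94.6 CPM in NPYtet replicates 1 to 5, against 212, 220.3, 167, 286 and 421 CPM in WT replicates 1 to 5. It was highest in NPYtet replicate 2 and WT replicate 5, which had the lowest sums of fast genes in their groups. Tpm3 was likewise highest in these 2 libraries, at 327 CPM in NPYtet replicate 2 and 286 CPM in WT replicate 5, and lowest in NPYtet replicate 5 at 116 CPM. Mybpc1 was high in the libraries high in Myh4, at 46.1, 80.8, 194, 212 and 83.5 CPM in NPYtet replicates, against 141, 26.1, 263, 179 and 24.6 CPM in WT replicates.

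No other muscle gene examined passed the test by genotype. In edgeR none passed of 26 further sarcomere genes, 24 genes of the triad and fibre membrane and 20 energy genes, where 11, 15 and 11 had a positive log2 fold change. Among the most abundant by CPM were the tropomyosin gene Tpm1 at 787 ± 194 CPM in NPYtet and 819 ± 164 CPM in WT (SD, n = 5 each), and the titin cap gene Tcap at 211 ± 158 CPM in NPYtet and 133 ± 63.7 CPM in WT. Ldb3, a Z disc gene, was at 141 ± 32.4 CPM in NPYtet and 132 ± 60.9 CPM in WT. Myh14, a non-muscle myosin, was at 148 ± 55.9 CPM in NPYtet and 244 ± 150 CPM in WT. Junctophilin 2 (Jph2), which ties the junctional membranes together, was at 81.0 ± 48.0 CPM in NPYtet and 82.0 ± 70.0 CPM in WT. The glycolytic aldolase Aldoa was at 1941 ± 671 CPM in NPYtet and 2343 ± 1611 CPM in WT, and glycogen phosphorylase Pygm at 389 ± 103 CPM in NPYtet and 443 ± 234 CPM in WT. By sex, edgeR called 1 gene of these 3 lists of 26, 24 and 20 genes, against 2.48% of all genes. It was the AMP deaminase gene Ampd1, lower in males (log2 fold change -1.60, adjusted p = 0.0306 in edgeR). It did not pass without WT replicate 2, 3 or 5 or NPYtet replicate 3, 4 or 5, and the adjusted p in edgeR ran from 0.0108 to 0.128 over single libraries left out.

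Genes of muscle regulation, repair and innervation were also without a call by genotype in edgeR. This holds for 14 muscle regulatory factors (9 positive, median 0.09), 8 satellite cell genes (4 positive, 0.03), 8 developmental or regeneration isoforms (5 positive, 0.05), 10 neuromuscular junction genes (5 positive, -0.02) and 10 atrophy genes (5 positive, 0.01). The transcription factors Mef2d, Mef2a and Mef2c were at 99.2, 105 and 45.3 CPM on average in NPYtet, against 120.4, 68.4 and 31.8 CPM in WT. The Notch target Heyl, listed with the satellite cell genes, was at 7.54 ± 0.665 CPM in NPYtet and 23.1 ± 12.2 CPM in WT (log2 fold change -1.61, SE 0.39, edgeR adjusted p = 0.833). The atrophy ligase Fbxo32 was at 64.0 ± 33.6 CPM in NPYtet and 50.6 ± 26.9 CPM in WT, and sarcolipin (Sln), a SERCA inhibitor, at 9.99 ± 5.73 CPM in NPYtet and 8.92 ± 5.61 CPM in WT. By sex, edgeR called 1 gene of these 5 lists of 14, 8, 8, 10 and 10 genes, against 2.48% of all genes. It was the integrin gene Itga7, higher in males (log2 fold change 2.29, adjusted p = 0.0440 in edgeR). It was at 50.9, 146, 36.05, 48.1 and 327 CPM in NPYtet replicates 1 to 5, against 25.1, 357, 39.4, 34.7 and 50.4 CPM in WT replicates 1 to 5. The highest values were those of WT replicate 2 and NPYtet replicate 5, the libraries with the lowest TMM factors. Without WT replicate 2 the log2 fold change was 1.53 (edgeR adjusted p = 0.0999) and without NPYtet replicate 5 it was 2.06 (edgeR adjusted p = 0.102), and of 10 single libraries left out it passed only without WT replicate 4 or 5.

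Markers of other striated or smooth muscle were checked as other sources of these transcripts. Of 8 heart markers 4 passed the filter, none of them called by genotype. Cardiac troponin T (Tnnt2) was at 8.81 ± 5.30 CPM in NPYtet and 7.61 ± 3.18 CPM in WT, the natriuretic peptide gene Nppb at 5.88 ± 11.8 CPM in NPYtet and 8.80 ± 10.8 CPM in WT, cardiac troponin I (Tnni3) at 4.48 ± 1.94 CPM in NPYtet and 4.13 ± 1.03 CPM in WT, and the atrial light chain Myl4 between 2.99 and 8.93 CPM in NPYtet and between 1.90 and 5.34 CPM in WT. By sex, Nppb was called, 1 of the 4 tested, against 2.48% of all genes. It was higher in males (log2 fold change 5.17, adjusted p = 0.0221 in edgeR), but was not called without WT replicate 2 or 3 or NPYtet replicate 3 or 4. The other 4 averaged under 1 CPM, with Nppa at 0 reads and the heavy chain Myh6 of the atrium at 0.206 ± 0.134 CPM in NPYtet and 0.261 ± 0.388 CPM in WT. The sum of 10 smooth muscle markers was 480 to 636 CPM in NPYtet, against 421 to 643 CPM in WT, led by Acta2 at 202 ± 67.3 CPM in NPYtet and 186 ± 50.4 CPM in WT. Of these 10, 5 were positive by genotype, none passed, and the median was 0.02, and 2 averaged under 1 CPM. In edgeR 1 of the 10 was called by sex, against 2.48% of all genes. It was Lmod1, lower in males (log2 fold change -1.66, adjusted p = 0.0398 in edgeR). Its values with libraries left out are not reported here. Positive log2 fold changes by sex (male minus female) were found for 2 of the 10, against 46.2% of all genes. Smooth muscle also uses Des and Tpm2, and its part in their levels was not tested.

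Genes outside the list whose levels followed the muscle genes were sought among 15140 non-members with a mean of at least 1 CPM. Likeness was the Pearson correlation, over the 10 libraries, of log2 CPM with the mean centred log2 CPM of Acta1, Ckm, Ttn and Neb. Among the 10 most alike were Rgs9 (0.96), Hspb3 (0.93), Ppp1r1a (0.91), Nkapl (0.89), Kbtbd13 (0.89), Xirp2 (0.87), 2310002L09Rik (0.87), 2610016A17Rik (0.87) and Gm17655 (0.86). Hspb3 encodes a small heat shock protein of muscle, Kbtbd13 a protein of the thin filament, and Xirp2 an actin-binding protein of striated muscle. Since 15140 genes were searched over 10 libraries that share depth and tissue makeup, these values are a description.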

How the data were processed

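RNA of whole skin was sequenced in 10 libraries, 5 NPYtet and 5 WT, grouped by the titles of the samples, with sex as labelled. The deposited values are raw counts of reads, 1 column per library, keyed by Ensembl ID. Per the labels' protocols, libraries were made from poly(A) RNA with a directional kit. Per the submitters' processing notes, the tools were STAR 2.5.2, DESeq2 1.30.1, Trimmomatic 0.36, FastQC 0.11.8 and bcl2fastq, and the build mm10. Not given in the sources used here are the strand setting, the treatment of reads that match several genes and the annotation release. Of 49671 IDs, 49412 matched GENCODE M21, and the other 259 held 0.0189% of reads.

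The test was that of edgeR 4.0.16 (R 4.3.3). Counts passing filterByExpr (minimum count 10, minimum total 15) were scaled by TMM and tested with the robust quasi-likelihood test on sex and genotype, adjusted by Benjamini and Hochberg over all 18060 genes at 0.05. A model of the 4 combinations gave the interaction. The fit was tested on simulated data. Log2 CPM adds a prior count of 2. The heavy chain ratios were compared by exact permutation tests. Alternatives were DESeq2 1.42.0, limma 3.58.1 voom with quality weights, RLE scaling, no filter, at least 1 CPM in 5 libraries, no sex term, a replicate block, another pseudocount, and libraries left out singly or 3 together.

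The members, the other gene lists and the 3 libraries left out together were chosen with earlier results of these data known. Named genes are all members, up to 4 genes of highest mean CPM in each other muscle list plus those called, up to 3 of each other cell type and the 10 non-members most alike. Myl4 as a heart marker, Myh6, Nppa and 5 fibroblast markers were named after their values were seen, and some genes that the rule takes are not reported here. Of 248 list names 1, Kbtbd10, was not matched. No 2 libraries of a group agreed within sampling noise. With 1 library per mouse, p-values weigh differences against the spread between these libraries, in which mouse and library quality cannot be told apart.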

Additional observations from a re-analysis of the deposited data

Results flagged for a closer look

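Of 72 groups of 5 values examined for a sample far from the others (Dixon's test), 8 had one. Chance gives about 1 in 20 for independent groups of normal values. These groups are CPM values of genes that share libraries, so the 8 flags do not measure an excess over chance. In NPYtet replicate 5, Tnni1 was at 3.24 CPM, against 0.229 to 0.467 CPM in the other 4 NPYtet libraries, and Des at 1001 CPM, against 383 to 486 CPM. In WT replicate 2, Atp2a1 was at 3218 CPM, against 662 to 1338 CPM in the other 4 WT libraries, Des at 1514 CPM, against 281 to 616 CPM, Cacna1s at 116.5 CPM, against 23.0 to 38.8 CPM, and Ckm at 1865 CPM, against 358 to 753 CPM. In WT replicate 3, Myl1 was at 748 CPM, against 270.4 to 390 CPM in the other 4 WT libraries, and Casq1 at 118 CPM, against 48.2 to 66.2 CPM. NPYtet replicate 5 and WT replicate 2 are the libraries with the lowest TMM factors, and the part of this in the values was not tested.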

How the results depend on the processing

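No member with an adjusted p was called by genotype or by the interaction under any alternative run. Of 574 member fold changes by genotype under the alternatives, 495 kept their sign, 79 turned and 0 passed, and 8 members kept 1 sign throughout. When single libraries were left out, the log2 fold change by genotype (NPYtet minus WT) of those that turned ran from -0.736 to 0.265 for Myh1, -0.779 to 0.169 for Myh2, -0.213 to 0.31 for Tnnt3, -0.063 to 0.604 for Tnni2, -0.57 to 0.15 for Actn3, -0.555 to 0.242 for Atp2a1, -0.546 to 0.108 for Tnnt1, -0.578 to 0.255 for Atp2a2, -0.448 to 0.151 for Tpm3, -0.38 to 0.49 for Mybpc1, -0.335 to 0.17 for Acta1, -0.271 to 0.493 for Des, -0.138 to 0.452 for Neb, -0.163 to 0.48 for Myoz1, -0.138 to 0.438 for Myot, -0.719 to 0.095 for Cacna1s, -0.336 to 0.468 for Ckm, -0.406 to 0.253 for Mb and -0.397 to 0.167 for Pgam2. The log2 ratio of Myh4 to Myh7, which restates Myh4 reads where Myh7 had none, ran from -1.485 to 0.451 and that of Myh4 to Myh2 from -0.407 to 0.365. With WT replicate 2, NPYtet replicate 1 and NPYtet replicate 5 left out together, the turned log2 fold changes were 0.128 for Myh4, 0.328 for Actn3, 0.09 for Atp2a1, 0.187 for Mybpc2, 0.074 for Atp2a2, 0.099 for Tpm3, 0.118 for Acta1, 0.028 for Actn2, 0.144 for Des, -0.09 for Myot, 0.192 for Ryr1, 0.215 for Cacna1s, 0.064 for Ckm, 0.024 for Pgam2 and 0.033 for Eno3, and the ratio of Myh4 to Myh2 was 0.112. In limma voom they were 0.004 for Myh4, -0.043 for Tnnt3, -0.029 for Tnni2, 0.048 for Actn3, 0.003 for Atp2a2, 0.069 for Mybpc1, -0.035 for Myoz1, -0.134 for Myot and 0.07 for Ryr1. Without a sex term they were 0.079 for Myh4 and -0.027 for Myoz1, and with at least 1 CPM in 5 libraries 0.006 for Des.

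The replicate numbers did not pair the samples: deviations of same-numbered libraries correlated at -0.256, 0.304, 0.644, 0.093 and 0.076 over genes. With the replicate block in place of the sex term 0 members and 1 gene were called, and the turned log2 fold changes were 0.097 for Myh2, 0.33 for Mybpc1, 0.019 for Acta1, 0.106 for Des, 0.115 for Ckm and 0.027 for Pgam2. The paired sign-flip test of the ratios Myh4 to Myh7 and Myh4 to Myh2, whose mean differences of -0.126 and -0.097 equal those of the groups by construction, gave exact permutation p = 1.0 and 0.938.

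Over all genes, calls by genotype numbered 35 in DESeq2, 2 in limma voom, 409 with no filter on low counts, 0 with the 3 libraries out and 1 to 8 with single libraries out (8 without WT replicate 3). By sex, members called numbered 3 in DESeq2, 8 in limma voom, 5 with no filter, 2 with the 3 libraries out and 0 to 3 with single libraries out, while all genes called numbered 2316, 5590, 2380, 949 and 58 to 2725. The cause was not tested. With 8 to 759 reads in all, the low slow fibre genes limit what depth can show: changes in Myh7, Myl2 and Myl3 were not detectable here. For the other members, the lack of a call by genotype does not show equal levels. The 18 growing hair follicle markers, with a median log2 fold change by genotype of -4.31, were not called in edgeR either.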
